A study of Mus musculus with 14 samples.

Results

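The genes described here are 10 genes of pericentral hepatocytes, the liver cells that lie around the central vein, chosen by symbol as known products of that zone or as dependents of Wnt/beta-catenin signalling, with the cytochrome P450 genes left out. Of these 10 genes, 7 had a row with a gene name among the 19505 genes of the array: Avpr1a, Slc1a2, Oat, Axin2, Lgr5, Tbx3 and Lect2. Glul, Rhbg and Rnf43 were not analysed here. All 7 were kept with no filter on level, and each had 1 row.

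Liver RNA came from male mice on a C57BL/6 background that carry homozygous floxed alleles of both catalytic AMPK subunit genes, Prkaa1 and Prkaa2. Feeding of a high-fat diet (60% of calories from fat) began at 6 weeks of age and lasted 4 weeks before an AAV8 virus was given by the jugular vein at 10 weeks. In 6 samples (control) the virus was the empty AAV8-TBG vector, and in 8 samples (knockout) it was AAV8-TBG-Cre, in which the TBG promoter directs the Cre recombinase to hepatocytes, so the other liver cells keep their floxed alleles. Every mouse, controls included, then received metformin (50 mg/kg per day, 3 weeks) and was fasted for 16 h before the liver was taken. The label age is 4 months, and the labels do not say that each sample is a separate mouse, so the p-values measure the spread between samples, which may be partly technical.

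Hepatocytes differ in gene expression along the axis from the portal vein to the central vein. Endothelial cells of the central vein secrete Wnt proteins and R-spondins, which stabilise beta-catenin in the neighbouring hepatocytes and switch on, through TCF/LEF factors, a pericentral programme that includes glutamine synthesis from ammonia. Some of these genes respond to the pathway in many tissues (Axin2, Lgr5, Rnf43, Tbx3), and Axin2, Lgr5 and Rnf43 also feed back on it. Others carry out the zone's own work, such as glutamate uptake (Slc1a2), ammonium transport (Rhbg), ornithine breakdown (Oat) and the response to vasopressin (Avpr1a). Whole liver was measured, so position along this axis was not resolved, and fewer pericentral cells cannot be told apart from less RNA per cell.

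The arrays fell into 2 sets that correlated more closely within (r 0.988 to 0.994) than across sets (0.951 to 0.963), each with 3 control and 4 knockout samples: control 1 to 3 with knockout 1 to 4 (set 1), and control 4 to 6 with knockout 5 to 8 (set 2). Differences were therefore estimated with the set as a term. Control 1 and control 4 stood apart on the second principal component (23.0 and 22.1, against -13.8 to 8.36 for the other arrays), and the calls of the genes named are given with and without them. The label descriptions give knockout 7 and 8 the sample numbers already used for knockout 5 and 6. No pair of arrays held identical values, so no array was a copy, but this cannot show whether those samples share an animal. The targeted genes were lower in the samples labelled knockout, Prkaa2 by -1.13 ± 0.08 (SE) and Prkaa1 by -0.67 ± 0.13 on the log2 scale (limma, adjusted p = 1.92e-06 and 0.0302), with all 8 knockout samples below every control of their set for both. The Prkaa1 call was lost without control 1, 2, 4, 5 or 6 or knockout 2, 4 or 5 (adjusted p up to 0.0770), and with control 1 and control 4 both left out (0.124), whereas Prkaa2 stayed past the threshold (5.02e-05). Hepatocyte markers averaged between 12.4 and 12.8 on every array, and none of their 10 genes passed the test.

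These upstream windows are shown because they belong to the pair of genes that fell, Avpr1a and Slc1a2, and to Lect2, a gene with the TCF/LEF letters close to its start that did not pass the test. Each is the 250 bases before a RefSeq start site on build GRCm38.p6, read 5′ to 3′ on the gene's strand, with matches to the TCF/LEF core in capitals. The Avpr1a window lies at chr10:122448249-122448498 on the plus strand. The Slc1a2 window is chr2:102706188-102706437, also on the plus strand, and it precedes a start site that lies 48199 bases inside the outermost annotated start of the gene. Lect2 is on the minus strand, with its window at chr13:56548539-56548788.
Avpr1a: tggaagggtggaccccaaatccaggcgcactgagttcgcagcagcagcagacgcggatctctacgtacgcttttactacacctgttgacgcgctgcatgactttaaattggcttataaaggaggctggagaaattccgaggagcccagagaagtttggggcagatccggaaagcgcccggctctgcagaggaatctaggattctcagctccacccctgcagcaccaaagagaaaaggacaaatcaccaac
Slc1a2: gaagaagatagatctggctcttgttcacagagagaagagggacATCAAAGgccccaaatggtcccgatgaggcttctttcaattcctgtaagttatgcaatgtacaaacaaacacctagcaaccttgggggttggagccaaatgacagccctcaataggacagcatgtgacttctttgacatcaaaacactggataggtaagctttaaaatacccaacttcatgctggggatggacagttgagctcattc
Lect2: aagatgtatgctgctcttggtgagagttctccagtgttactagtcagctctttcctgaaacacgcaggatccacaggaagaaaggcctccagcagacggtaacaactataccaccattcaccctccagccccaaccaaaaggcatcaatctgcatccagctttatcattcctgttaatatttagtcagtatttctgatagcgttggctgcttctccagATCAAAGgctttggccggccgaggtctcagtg

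The motif searched was the core CTTTG followed by 2 letters that are each either A or T, on both strands, so a match on the opposite strand ends in CAAAG. Slc1a2 held 1 match, whose first letter lies 207 bases before the start site, and Lect2 held 1 match beginning 32 bases before it. No match was found in the windows of Avpr1a, Oat, Axin2 or Glul, or in either window of Rnf43; no window was used for Lgr5, Tbx3 or Rhbg. Of all 32851 windows of this length in the table, 14.8% held a match. A match is only a description of letters in the window.

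Of the 7 measured genes, Avpr1a and Slc1a2 were lower in the knockout livers and 5 did not pass the test. Over all 19505 genes, limma called 137 (0.702%) at an adjusted p under 0.05, of which 53 (0.272%) were lower and 84 (0.431%) higher. The median difference of the 7 genes was 0.00 on the log2 scale, and it was also 0.00 over all genes, and 3 of the 7 genes had a negative and 4 a positive difference. In both genes that fell, each of the 8 knockout samples was lower than all controls of its own set, which 105 of all genes (0.538%) did, while 151 (0.774%) did so on the upper side. At an unadjusted p under 0.05 the same 2 of the 7 genes passed, against 10.4% of all genes.

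**Figure D1:**
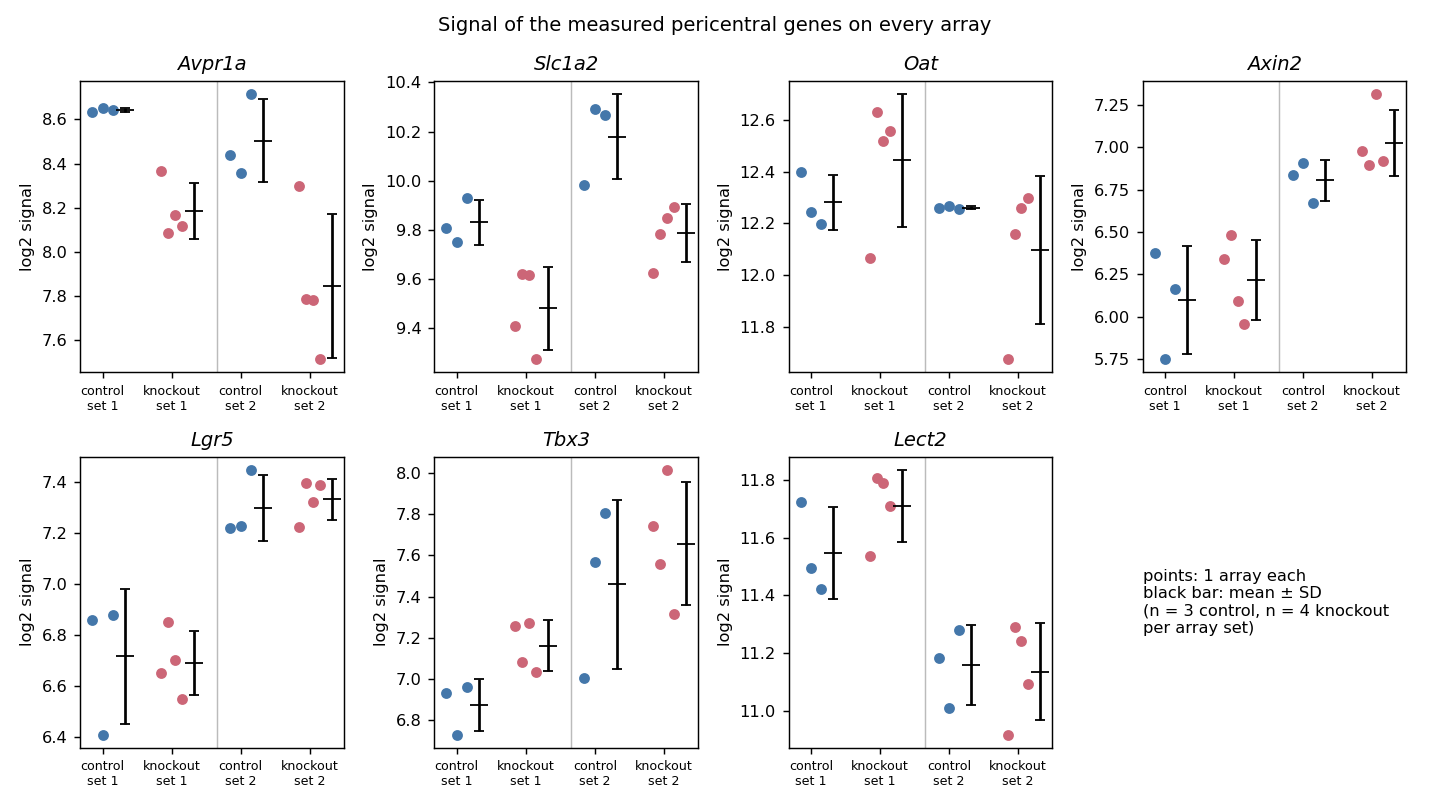
Log2 signal of the 7 measured pericentral genes on each of the 14 arrays (vertical axis, 1 point per array), by array set and group, with the mean ± SD of each group as a black bar. Knockout points lie below all control points of their set in Avpr1a and Slc1a2, and the groups overlap in at least 1 set for each of the other 5 genes.

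Avpr1a encodes the V1a vasopressin receptor, which couples through Gq to calcium release and, in hepatocytes, to glycogen breakdown. In set 1 its log2 signal was 8.63, 8.65 and 8.64 in control 1 to 3 and 8.37, 8.08, 8.17 and 8.12 in knockout 1 to 4. In set 2 it was 8.44, 8.36 and 8.71 in control 4 to 6 and 8.30, 7.78, 7.78 and 7.51 in knockout 5 to 8. The groups did not overlap in either set, and knockout 5 was the closest to the controls of its set. Avpr1a fell by 0.56 ± 0.11 (SE, n = 6 and 8) on the log2 scale, to 0.678 of the control level (95% interval of the difference -0.79 to -0.33; limma, adjusted p = 0.0259). The difference was -0.46 in set 1 and -0.66 in set 2.

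Leaving out 1 array at a time moved the Avpr1a difference only between -0.62 and -0.50, but the call was lost without control 1, 2, 4 or 6 or knockout 2, 4 or 7 (adjusted p up to 0.0625). Without control 1 and control 4 together it was -0.58, with an adjusted p of 0.0928. No other vasopressin or oxytocin receptor gene passed the test: Avpr2 was -0.28 ± 0.13 (adjusted p = 0.457), Avpr1b -0.11 ± 0.10 and Oxtr 0.02 ± 0.12, all dim, with control means between 4.05 and 4.43.

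Slc1a2 encodes the glutamate transporter GLT-1, which in the liver supplies glutamate to the pericentral cells that make glutamine. Its log2 signal in set 1 was 9.81, 9.75 and 9.93 in control 1 to 3 and 9.41, 9.62, 9.62 and 9.28 in knockout 1 to 4. In set 2 it was 9.98, 10.29 and 10.27 in control 4 to 6 and 9.62, 9.79, 9.85 and 9.89 in knockout 5 to 8. Here too every knockout sample was below every control of its set, and control 4 was the lowest control of set 2. Slc1a2 fell by 0.37 ± 0.08 (SE, n = 6 and 8), to 0.773 of the control level (95% interval of the difference -0.54 to -0.20; limma, adjusted p = 0.0454).

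This call was close to the threshold and was lost without any 1 of the 14 arrays, with adjusted p between 0.0558 and 0.105, while the difference stayed between -0.41 and -0.34. Without control 1 and control 4 it was -0.43 (adjusted p = 0.0787). The difference was -0.35 in set 1 and -0.39 in set 2. Of the other glutamate transporter genes measured, Slc1a1, Slc1a3, Slc1a6 and Slc1a7 had differences between -0.18 and 0.09 and none passed the test.

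**Figure D2:**
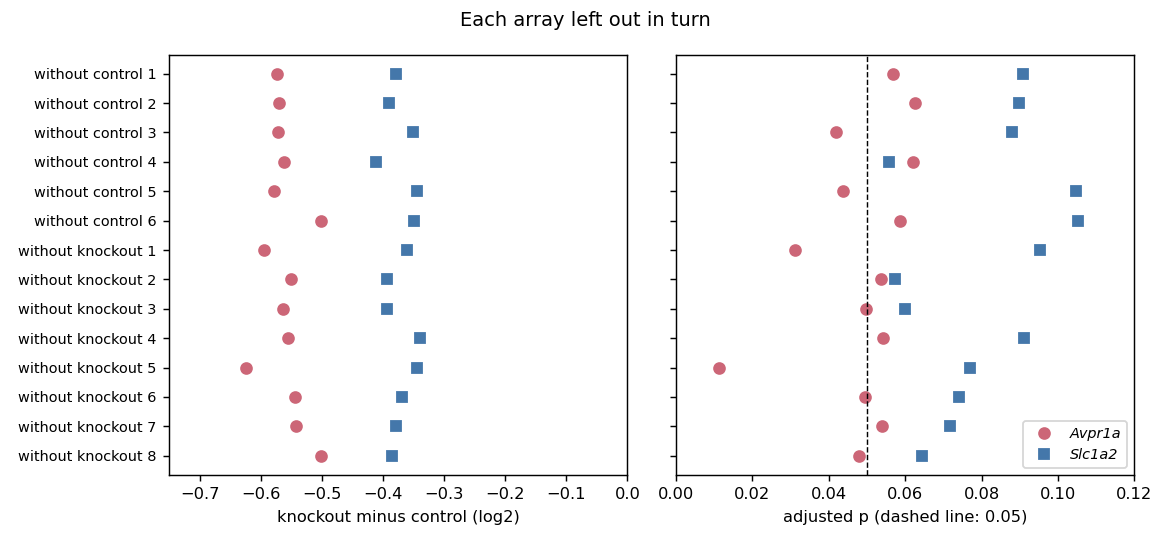
Left, the knockout minus control difference (log2) of Avpr1a and Slc1a2 with each array left out in turn. Right, the matching limma adjusted p, with the 0.05 threshold dashed: Slc1a2 lies above it in all 14 and Avpr1a in 7.

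Oat encodes ornithine aminotransferase, which turns ornithine into glutamate semialdehyde and in mouse liver is restricted largely to the cells next to the central vein. In set 1 its log2 signal ran from 12.20 to 12.40 in control and from 12.06 to 12.63 in knockout samples, and in set 2 from 12.25 to 12.27 and from 11.67 to 12.30. The knockout samples lay on both sides of the controls in both sets. The difference was 0.00 ± 0.11 (SE; 95% interval -0.24 to 0.24; adjusted p = 1.00), made up of 0.16 in set 1 and -0.16 in set 2. The difference between the sets did not pass the test (interaction -0.32 ± 0.22, SE; adjusted p = 0.998).

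Lect2 encodes a chemotaxin secreted by hepatocytes. Its log2 signal ran from 11.42 to 11.72 in control and from 11.54 to 11.81 in knockout samples of set 1, and from 11.01 to 11.28 and from 10.92 to 11.29 in set 2. The groups overlapped in both sets, with a difference of 0.07 ± 0.09 (SE; 95% interval -0.11 to 0.25; adjusted p = 0.855). With 1 array left out it lay between 0.032 (without control 3) and 0.11 (without knockout 5).

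Oat and Lect2 were lowest in the same knockout sample of each set, a pattern picked out after the values were seen. Knockout 1 had the lowest signal of both genes among the knockout samples of set 1 (12.06 and 11.54), and knockout 5 had the lowest of both in set 2 (11.67 and 10.92). These same arrays had the highest Avpr1a of the knockout samples of their sets (8.37 and 8.30). Oat and Lect2 did not go together on every array. Knockout 8, the next lowest of set 2 in Lect2 (11.09), had the highest Oat of that set's knockout samples (12.30). On the second principal component, knockout 1 (4.06) and knockout 5 (8.36) were the knockout samples nearest to control 1 and control 4. Those controls were not low in Oat or Lect2. Control 1 was the highest control of set 1 in both (12.40 and 11.72). Control 4 lay between the other controls of set 2 in both (12.26 and 11.18). The part of that component in these values was not tested.

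**Figure D3:**
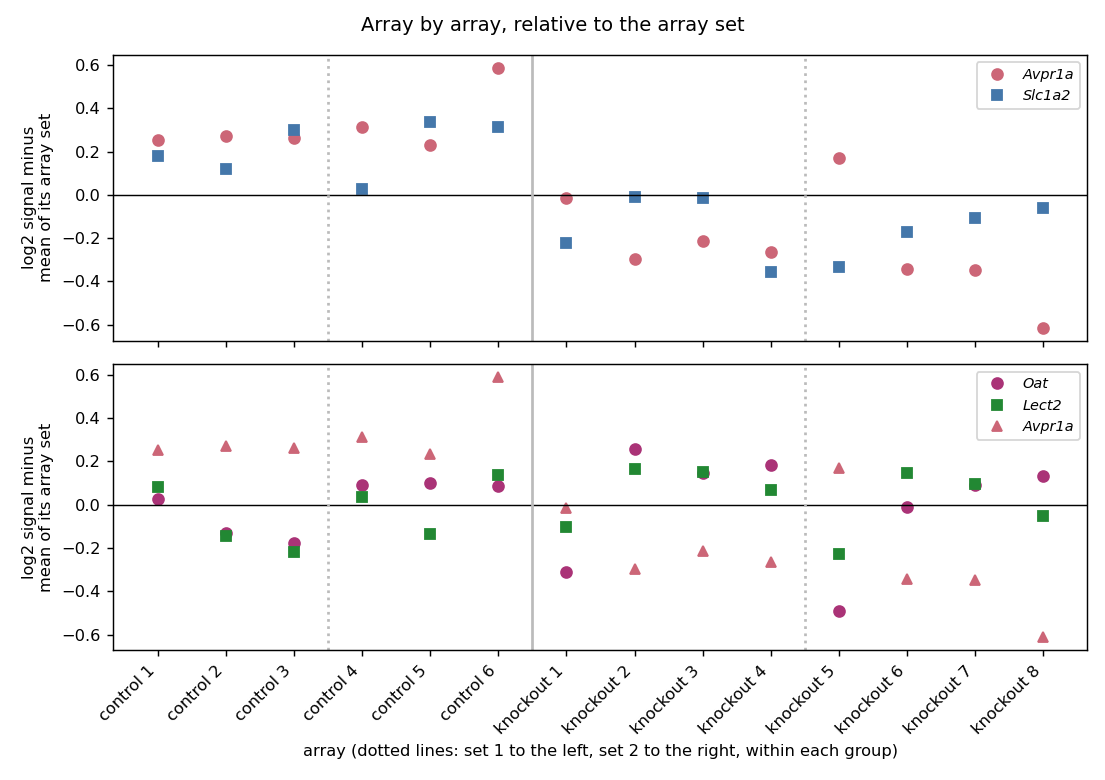
Log2 signal minus the mean of the array set, for each array, of Avpr1a and Slc1a2 (top) and of Oat, Lect2 and Avpr1a (bottom). In the top panel all control points are above 0 and knockout 5 is the only knockout sample with Avpr1a above 0; in the bottom panel Oat and Lect2 are lowest, and Avpr1a highest, in knockout 1 and knockout 5 among the knockout samples of their sets.

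The genes that report Wnt/beta-catenin activity in many tissues did not pass the test. Axin2, a scaffold of the beta-catenin destruction complex and a feedback inhibitor of the pathway, ran from 5.75 to 6.38 in control and from 5.96 to 6.48 in knockout samples of set 1, and from 6.67 to 6.91 and from 6.89 to 7.31 in set 2. The knockout samples reached higher in both sets, with 3 of 4 above every control in set 2, and the ranges overlapped. Its difference was 0.17 ± 0.11 (SE; 95% interval -0.07 to 0.41; adjusted p = 0.652). With control 1 and control 4 left out the Axin2 difference was 0.25 (adjusted p = 0.483), while leaving out control 2 alone gave 0.10, the lowest of the 14 such values, and leaving out control 1 alone gave 0.24, the highest.

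Lgr5, a receptor for R-spondins, gave 6.41 to 6.88 in control and 6.55 to 6.85 in knockout samples of set 1, and 7.22 to 7.45 and 7.22 to 7.40 in set 2. In each set the knockout samples lay inside the control range, and the difference was 0.00 ± 0.09 (SE; 95% interval -0.18 to 0.18; adjusted p = 0.996). Tbx3, a T-box transcriptional repressor, gave 6.73 to 6.96 in control and 7.03 to 7.27 in knockout samples of set 1, where the groups did not overlap. In set 2 it gave 7.00 to 7.81 and 7.31 to 8.02, where they did. The Tbx3 difference of 0.24 ± 0.12 (SE; 95% interval -0.02 to 0.51; adjusted p = 0.535) did not pass, and it was 0.14 without control 1 and control 4, and 0.15 (without control 4) to 0.33 (without control 6) with 1 array left out.

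**Figure D4:**
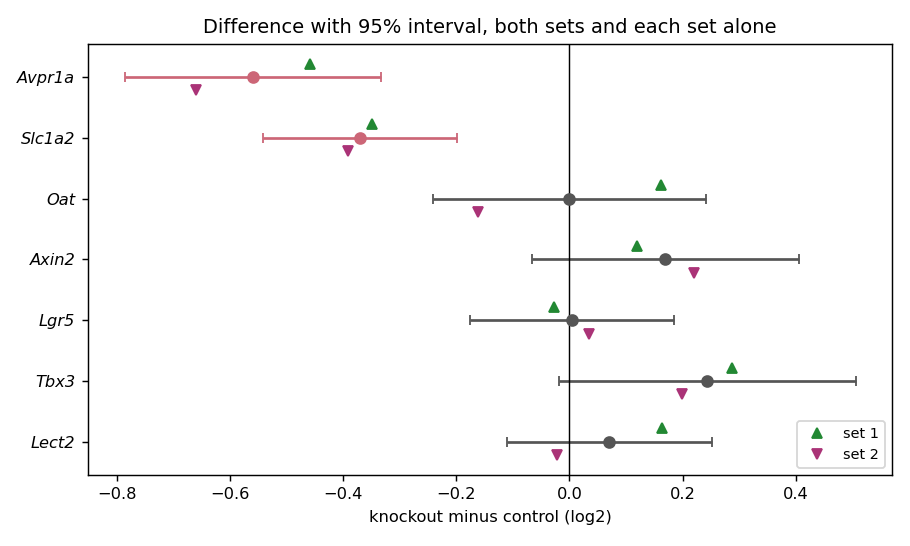
Knockout minus control difference (log2) of each measured gene with its 95% interval from the fit over both sets (circles, red for adjusted p under 0.05), and in set 1 (upward triangles) and set 2 (downward triangles) alone. The intervals of Avpr1a and Slc1a2 lie below 0 and those of the other 5 genes include it.

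The 95% intervals bound the difference in array signal, and the background level, which can shrink such differences, is not known here. For Axin2 a fall beyond -0.07 and a rise beyond 0.41 lie outside the interval. For Lgr5 the bounds are -0.18 and 0.18, and for Tbx3 -0.02 and 0.51. Whether Avpr1a and Slc1a2 differ from the other 5 genes in their response was not tested. For none of the 7 genes did the knockout difference pass the test for differing between the sets, nor did it for any of all genes (limma interaction, 0 genes, 0%; 943 genes, 4.83%, at an unadjusted p under 0.05). The level itself did differ between the sets: set 2 minus set 1 was 0.77 for Axin2, 0.62 for Lgr5, 0.53 for Tbx3, 0.32 for Slc1a2, -0.21 for Oat, -0.25 for Avpr1a and -0.50 for Lect2, beside a median of 0.11 over all genes. Without regard to sign the median gap over all genes was 0.297, so the gaps of Oat and Avpr1a were smaller than that, that of Slc1a2 was near it, and those of Axin2, Lgr5, Tbx3 and Lect2 were larger. Without the set term limma called 0 genes (0%; 655 genes, 3.36%, at an unadjusted p under 0.05, Avpr1a and Slc1a2 among them), with adjusted p of 0.519 for Avpr1a and 1.00 for Slc1a2.

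No Wnt ligand or receptor gene passed the test. For this and the later lists, limma called 0.702% of all genes, and 10.4% had an unadjusted p under 0.05. Of 13 Wnt ligand, R-spondin and secretion genes none passed the test (1 lower and 1 higher at an unadjusted p under 0.05; median -0.05), Wnt5b being 0.27 ± 0.09 (SE; adjusted p = 0.285) and Rspo2 -0.21 ± 0.10 (adjusted p = 0.469). Of 17 measured receptor and receptor turnover genes none passed (2 lower and 2 higher unadjusted; median 0.04). Ror1, a Wnt5a receptor, was -0.28 ± 0.08 (adjusted p = 0.136), with all 8 knockout samples below the controls of their set, and Lgr6, an R-spondin receptor related to Lgr5, was 0.23 ± 0.07 (adjusted p = 0.171).

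Inside the cell, none of 14 measured genes of the destruction complex and its Dishevelled partners passed (2 lower and 1 higher unadjusted, median -0.02). Among them, Amer1, which recruits APC to the membrane, was -0.24 ± 0.09 (limma, adjusted p = 0.349). Btrc, the ubiquitin ligase subunit that recognises beta-catenin, was 0.21 ± 0.08 (adjusted p = 0.350). Ctnnb1, the gene of beta-catenin itself, and Dvl2 are on this list but were not analysed here. None of 10 measured TCF/LEF factors and coactivators passed, also none unadjusted (median 0.03). Pygo2 was 0.15 ± 0.10 and Hnf4a, a hepatocyte nuclear receptor, 0.08 ± 0.06. In a list of 11 measured general Wnt target genes, which includes Axin2, Lgr5 and Tbx3, 0 genes passed in limma and 0 had an unadjusted p under 0.05, with a median of 0.00.

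Of 18 Wnt inhibitors and corepressors 1 fell and none rose (2 lower and 2 higher unadjusted; median -0.02). Tle3, a Groucho-type corepressor that binds TCF/LEF factors, fell by 0.72 ± 0.13 (SE; limma, adjusted p = 0.0247), by 0.52 in set 1 and 0.92 in set 2, with 6 of 8 knockout samples below every control of their set. The Tle3 call was lost without control 1, 2 or 4 or knockout 4 (adjusted p up to 0.0625), and without control 1 and control 4 together its adjusted p was 0.106. Tle1, a corepressor of the same family named after its values were seen, lay the other way at 0.42 ± 0.12 (adjusted p = 0.144), with all 8 knockout samples above every control of their set, and at 0.22 without control 1 and control 4 (adjusted p = 0.330).

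In the lists of the liver zones 1 pericentral and 1 periportal gene rose. Of 21 other measured pericentral genes 1 rose (2 lower and 4 higher at an unadjusted p under 0.05, beside 10.4% of all genes in either direction; median 0.05): Blvrb, a biliverdin reductase, by 0.39 ± 0.08 (adjusted p = 0.0389, or 0.171 with control 1 and control 4 left out). The Blvrb call was lost without control 1, 2, 4 or 5 or knockout 2, 3, 4, 6, 7 or 8 (adjusted p up to 0.0953). In 2 of the 21 all 8 knockout samples were below the controls of their set, beside 0.538% of all genes. Slc13a3, a dicarboxylate transporter, was -0.51 ± 0.12 (limma, adjusted p = 0.0682). Slc16a10, an aromatic amino acid transporter named after its values were seen, was -0.31 ± 0.07 (adjusted p = 0.0678). The adjusted p of Slc13a3 was 0.0433 with dim genes left out and 0.0238 with eBayes trend and robust. It was 0.101 with array weights, 0.124 without control 1 and control 4, and 0.0611 to 0.144 with 1 array left out. Of the 21 genes 14 had a positive and 7 a negative difference. The largest was that of Gstm3, named after its values were seen, at 0.75 ± 0.23 (adjusted p = 0.208). Of 17 measured periportal genes 1 rose, beside 0.431% of all genes, and the list median was 0.03. At an unadjusted p under 0.05, 3 of them were lower and 4 higher, beside 10.4% of all genes in either direction. The gene that rose was G6pc, the glucose-6-phosphatase catalytic subunit, by 0.73 ± 0.12 (limma, adjusted p = 0.0100, or 0.0599 without control 1 and control 4). In G6pc all 8 knockout samples were above the controls of their set, and in Pigr, the polymeric immunoglobulin receptor, named after its values were seen, all 8 were below them (-0.11 ± 0.06, adjusted p = 0.566).

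Among 17 measured genes of glutamine, glutamate and ammonia handling, a list that holds Slc1a2 and Oat, Slc1a2 was the 1 gene that passed. At an unadjusted p under 0.05, 3 were lower and 1 higher, beside 10.4% of all genes in either direction. The list median was 0.00. Glul, Gls2 and Glud1, also listed, were not analysed here. Prodh, a proline dehydrogenase named here after its values were seen, was -0.37 ± 0.11 (adjusted p = 0.153), with all 8 knockout samples below the controls of their set. In the list of 17 Gq-coupled receptor and calcium release genes, which holds Avpr1a, no other gene passed (median 0.00), and no other gene had an unadjusted p under 0.05. Genes of the Lect2 receptor list (4 measured, with Cd209a at 0.15 ± 0.10 and Met at -0.09 ± 0.08) and the T-box family (16 measured, with Tbx6 at 0.19 ± 0.09) had 0 genes past the threshold in limma and 0 at an unadjusted p under 0.05.

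**Figure D5:**
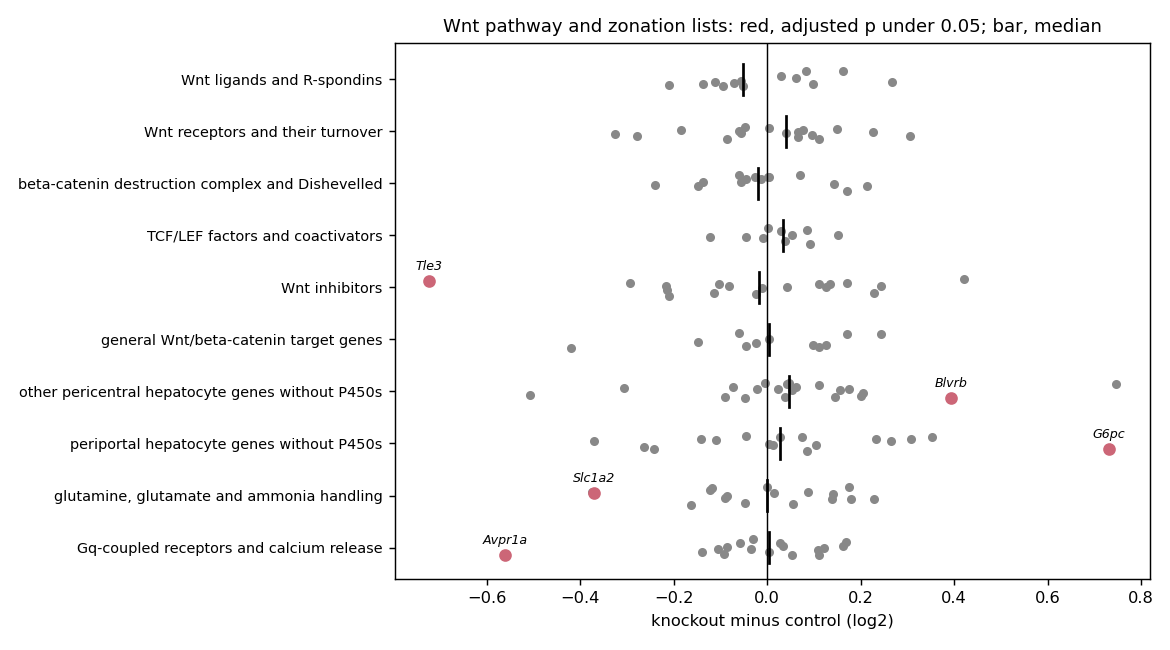
Knockout minus control difference (log2, horizontal axis) of every measured gene in 10 lists of the Wnt pathway, the liver zones and the processes of the members (1 point per gene, red for adjusted p under 0.05, black bar for the list median). The list medians lie between -0.05 and 0.05, and 5 genes are past the threshold: Tle3, Slc1a2, Avpr1a, Blvrb and G6pc.

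The genes closest in pattern to the pair that fell were sought by Pearson's r over the 14 arrays with the set means removed, among 6119 brighter and more variable genes, as a description. For Slc1a2 they were Pcnx (r = 0.93), Slc13a3 (0.91), Bhlhe40 (0.89), Prkaa2 (0.87) and Fasn (0.86), and without control 1 and control 4 these r lay between 0.86 and 0.93. With the group means removed as well, r was 0.82 for Pcnx, 0.83 for Slc13a3, 0.78 for Bhlhe40, 0.44 for Prkaa2 and 0.57 for Fasn. Slc13a3 is also on the pericentral list, whereas Pcnx and Bhlhe40, about as close within groups, are not. All were chosen by r on these same arrays, so a high r within groups is partly built into the choice. Avpr1a was closest to Pklr (0.85), Slc3a1, Cyp2r1, Clec2h and Col8a1 (0.82 to 0.83), whose r within groups was lower, from 0.29 to 0.67. Of these 10 genes Pcnx, Fasn, Prkaa2, Pklr, Slc3a1, Cyp2r1 and Clec2h were themselves past the threshold and lower in knockout, beside 0.272% of all genes. The r that chose them contains the group difference, so genes that fell were favoured by the choice and their number is no separate result. Without control 1 and control 4, Fasn, Prkaa2 and Clec2h stayed past it, and Pcnx (adjusted p = 0.0686), Pklr (0.0533), Slc3a1 (0.0686) and Cyp2r1 (0.0809) did not. With 1 array left out, the Cyp2r1 call was lost for every array but knockout 7 (adjusted p up to 0.108), the Pcnx call without control 1, 2, 3 or 5 or knockout 1, 4 or 6 (up to 0.0709), and the Pklr call without control 2 (0.0555). Bhlhe40 was past the threshold with eBayes trend and robust (adjusted p = 0.0451) and not as reported (0.195).

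Markers of the other liver cell types were read beside these results. None of the measured markers passed the test in any list: 10 of liver endothelium, 6 of the central vein endothelium that secretes Wnt (its mean level differed by -0.05 between groups within sets), 9 of hepatic stellate cells, 7 of Kupffer cells, 5 of bile duct epithelium and 5 of T and B cells. The mean level of the central vein list was 5.66 to 6.16 in control and 5.77 to 6.08 in knockout samples of set 1, and 6.11 to 6.40 and 6.15 to 6.29 in set 2, with overlapping groups. That of the liver endothelium list was 6.68 to 7.77 in control and 7.04 to 7.60 in knockout samples of set 1. In set 2 it was 7.31 to 8.02 and 7.67 to 8.05. The lowest array was control 1 in set 1 and control 4 in set 2. The dim T and B cell markers averaged 4.64 to 4.87 and 4.80 to 5.11 in set 1, and 4.49 to 4.69 and 4.72 to 4.97 in set 2, where the groups did not overlap. Their part in the differences of Avpr1a and Slc1a2 was not tested.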

How the data were processed

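The authors' deposited values are on a log2 scale, 1 row per transcript cluster of an Affymetrix array, labelled with the WT PLUS kit per the labels' protocols; RMA and Partek are named without versions per the submitters' processing notes, and the log2 scale was inferred from the values (2.13 to 13.8). No further normalization was applied. Arrays give no read depth, and the number of arrays limits the precision; the background level is not known here. Of 22206 rows, 19572 had 1 gene symbol and 2634 were not named; for the 55 genes with over 1 row the brightest was used. The array sets came from average-linkage clustering of the correlations between arrays over all rows. Group differences were fitted in limma 3.58.1 under R 4.3.3 (lmFit, then eBayes) with terms for group and array set, leaving 11 residual degrees of freedom, on all 19505 genes, Benjamini-Hochberg adjusted, threshold 0.05; intervals are 95% and unadjusted. The fit was tested on simulated data.

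The members, the lists, the set term and the alternatives were chosen with earlier results of these data known. Named by rule were the members, the targeted genes, up to 4 genes past the threshold per list (otherwise the 2 with the smallest p), and the 5 genes most like each member past the threshold. Likeness was computed among genes with a mean of at least 5 and an SD above the median of those. Promoter windows are RefSeq's for GRCm38.p6 and were found for 7 of the 10 members, 5 of them measured. Replicate numbers are shared between groups but mark no shared animal in the labels.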

Additional observations from a re-analysis of the deposited data

Results flagged for a closer look

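Avpr1a in control 6 stood above the other controls. Relative to the mean of its array set its log2 signal was 0.59, with a gap to the next control that is too large a share of the range of the 6 controls by Dixon's test at 95%. Of 14 groups of values tested (7 genes in 2 groups, set means removed), 1 was marked in this way, and chance marks about 1 in 20. The set mean includes the knockout samples. The larger Avpr1a difference of set 2 (-0.66, against -0.46 in set 1) therefore lifts the controls of set 2 in this measure. The mark depends on this centring, and the controls were not tested about their own mean. Without control 6 the Avpr1a difference was -0.50, with an adjusted p of 0.0586.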

How the results depend on the processing

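Among the alternatives run, the direction of Avpr1a, Slc1a2, Axin2 and Tbx3 was the same in each, and what changed was the side of the threshold. Genes past it numbered 137 as reported, 0 with no array set term, 223 with dim genes left out, 325 with eBayes trend and robust, 26 without control 1 and control 4, 67 with knockout 5 with 7 and 6 with 8 averaged, 12 without knockout 7 and 8, 2 in array set 1 alone, 2 in array set 2 alone, 40 with a fold minimum of 1.5, and 44 to 132 with 1 array left out. Of the 7 genes 2 passed as reported, 1 with array weights or with averaged knockout pairs, 0 to 1 with 1 array left out, and 0 with no set term, without control 1 and control 4, without knockout 7 and 8, in either set alone or with the fold minimum. Avpr1a lost its call with no set term (-0.56), without control 1 and control 4 (-0.58), without knockout 7 and 8 (-0.46), in set 1 alone (-0.46) and in set 2 alone (-0.66), and lay between -0.62 and -0.50 with 1 array left out. Slc1a2 lost it under the same settings (-0.37, -0.43, -0.40, -0.35 and -0.39), with array weights (-0.36) and with averaged pairs (-0.37), and lay between -0.41 and -0.34 with 1 array left out. Some of these settings use fewer arrays; otherwise the cause was not tested.

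Oat and Lgr5, whose differences were 0.00, changed sign. Oat was 0.0031 with quantile normalization, 0.0034 with median centring, 0.044 with array weights, 0.029 without control 1 and control 4, 0.029 with averaged pairs and 0.16 in set 1 alone, and -0.040 to 0.076 with 1 array left out. Lgr5 was -0.00010 with quantile normalization, -0.0015 with averaged pairs, -0.011 without knockout 7 and 8 and -0.027 in set 1 alone, and -0.059 to 0.044 with 1 array left out. In set 2 alone Lect2 was -0.022, Cd209a -0.095 and Met 0.026. The median of the 7 genes was 0.12 in set 1 alone, and -0.03 to 0.08 with 1 array left out.

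With the replicate number as a block (replicate block, random, correlation 0.0673, with the set term) 164 genes passed, Avpr1a at -0.55 (adjusted p = 0.0227) and Slc1a2 at -0.37 (adjusted p = 0.0341). Deviations of same-numbered samples from the means of group and set correlated between 0.02 and 0.09. With 3 or 4 arrays per group and set, this cannot show whether such samples share more than a number.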

Other observations

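Lhpp, a phosphatase gene that is also on the pericentral list, was among the genes most like Oat, and it was named after its values were seen. Over the 14 arrays with set means removed r was 0.85, and with group means removed as well 0.93, as a description. Lhpp did not differ between the groups past the threshold (0.05 ± 0.12, SE; limma, adjusted p = 0.948). On GRCm38.p6 Oat lies at chr7:132557475-132576398 and Lhpp at chr7:132610615-132706420, that is, 34216 bases apart, with 2 annotated genes wholly between them. Array rows of both genes come from the same RNA, so shared array effects are in this likeness.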
